A study of Caenorhabditis elegans with 2 samples.

Results

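A set of 361 ChIP-seq peaks at genes for transfer RNAs (tRNAs), small nucleolar RNAs (snoRNAs) and small nuclear RNAs (snRNAs) is described here, out of 29973 peaks on the nuclear chromosomes of Caenorhabditis elegans. A peak belonged to the set when its summit lay inside a gene of these biotypes in the Ensembl annotation of WBcel235 (ce11), or within 100 bp of one. The list is the authors' relaxed one, which holds background as well as peaks and was made as input for a later threshold, so a peak in it is not by itself a binding site. By the nearest gene, 221 of the peaks were at tRNA genes, 105 at snoRNA genes and 35 at snRNA genes. The chromatin immunoprecipitation was of ELT-1, a zinc finger protein of the GATA family that sets the fate of the epidermis. The embryos were of mixed stages, from hermaphrodites of strain OP354, which carries unc-119(tm4063) III and the transgene wgIs354, a C-terminal GFP-FLAG tag on ELT-1. There was 1 group, with 2 biological replicates, so no treated or mutant group was compared, and the set was described beside the other 29612 nuclear peaks. The descriptions state that an antibody to GFP was used, while the antibody field reads elt-1. The whole embryo was the source, so a peak cannot be given to 1 cell type, the sources used here do not name the regulatory sequence that drives the transgene, and an untagged strain was not analysed here.

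tRNA genes are read by RNA polymerase III from promoters that lie inside the gene, the A box and the B box, to which the factor TFIIIC binds. snoRNAs guide the modification of ribosomal RNA, and in C. elegans many lie in introns of protein-coding genes while others have promoters of their own. snRNAs build the spliceosome, and the C. elegans spliced leader RNAs donate a short leader to the 5′ ends of many messenger RNAs. GATA factors bind DNA with the letters WGATAR, where W is A or T and R is A or G.

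The sequences of 10 of the named peaks and genes show either the gene itself or the bases around the summit. The tRNA genes shown are the alanine gene T07H6.t2 (chrX:6292278-6292349, minus strand), second in signal among the tRNA members, and the proline gene F46G11.t1 (chrX:5801472-5801543, plus strand), 1 of 24 identical genes. They are printed 5′ to 3′ on the strand of the gene, with capitals on the letters GTTCNANNC, the core of the B box in a loose form. The summit lay inside T07H6.t2 but just upstream of F46G11.t1, outside the printed bases. The windows of F29C4.t1, C04A11.t1 and C28G1.t1, whose summits lay outside the gene, held no such letters and are not printed.
T07H6.t2: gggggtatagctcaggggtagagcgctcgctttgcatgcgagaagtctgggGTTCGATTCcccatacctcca
F46G11.t1: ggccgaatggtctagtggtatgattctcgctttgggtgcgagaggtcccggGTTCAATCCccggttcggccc
The snoRNA set is shown as 121 bp around the summit, on the strand of the gene. Several strong members, but not all, carry the same letters outside tRNA genes. T06C12.16 (signal 37.9), with no such letters in its window, is not printed, while Y43F8C.22 (37.5), which has them, is. Capitals mark GTTCNANNC in T03F7.8 (chrV:11314170-11314290, plus strand), C51F7.4 (chrV:12303572-12303692, plus strand), W03C9.9 (chrII:11960761-11960881, plus strand) and Y43F8C.22 (chrV:19643171-19643291, minus strand). In T10B9.11 (chrII:9774770-9774890, minus strand) they mark WGATAR, which lies at the summit. The T10B9.11 window also holds 1 match to GTTCNANNC, left in lower case.
T03F7.8: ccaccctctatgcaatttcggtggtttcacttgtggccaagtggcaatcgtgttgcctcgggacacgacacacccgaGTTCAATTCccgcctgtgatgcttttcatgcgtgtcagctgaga
C51F7.4: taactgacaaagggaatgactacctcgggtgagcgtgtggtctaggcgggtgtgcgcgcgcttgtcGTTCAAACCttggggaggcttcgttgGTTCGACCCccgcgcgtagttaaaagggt
W03C9.9: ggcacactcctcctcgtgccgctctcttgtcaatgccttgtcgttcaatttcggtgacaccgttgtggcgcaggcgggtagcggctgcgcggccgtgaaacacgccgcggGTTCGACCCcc
Y43F8C.22: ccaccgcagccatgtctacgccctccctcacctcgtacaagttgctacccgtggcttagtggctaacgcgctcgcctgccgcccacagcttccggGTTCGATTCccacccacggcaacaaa
T10B9.11: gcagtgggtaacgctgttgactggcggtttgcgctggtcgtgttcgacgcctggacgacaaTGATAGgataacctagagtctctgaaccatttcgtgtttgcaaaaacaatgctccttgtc
The snRNA windows, of the same length, are those of sls-2.1 (chrII:5844825-5844945, plus strand), F54D8.7 (chrIII:5080879-5080999, minus strand) and W05B2.8 (chrIII:10989545-10989665, plus strand). Capitals mark the letters ATGTCT or their complement, and TATATAA on the strand shown, which stand ahead of the genes F54D8.7 and W05B2.8. C52E4.8, with a higher signal than F54D8.7 and W05B2.8, has neither of these in its window and is not printed. Also not printed is sls-2.4, the snRNA member of highest signal, which held no ATGTCT within 100 bp of its summit. How often TATATAA stands at other summits was not counted.
sls-2.1: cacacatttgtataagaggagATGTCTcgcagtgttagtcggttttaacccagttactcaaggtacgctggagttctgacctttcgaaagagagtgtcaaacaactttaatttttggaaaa
F54D8.7: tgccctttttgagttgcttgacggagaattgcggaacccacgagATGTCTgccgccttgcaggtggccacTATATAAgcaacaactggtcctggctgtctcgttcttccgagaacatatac
W05B2.8: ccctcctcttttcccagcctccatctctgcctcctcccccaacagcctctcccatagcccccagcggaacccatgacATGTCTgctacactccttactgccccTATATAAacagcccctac
The loose core and ATGTCT were chosen after the sequences were seen.

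tRNA and snoRNA genes had a relaxed summit at the 5′ end more often than the other gene classes. Over the whole gene, a peak lay at 216 of 612 tRNA genes (35.3%, 95% Wilson interval 31.6 to 39.2%), at 103 of 346 snoRNA genes (29.8%, 25.2 to 34.8%) and at 33 of 129 snRNA genes (25.6%, 18.8 to 33.7%). Over whole genes, which are longer in those classes, the share was 48.1% for protein-coding, 39% for antisense RNA and 33.0% for lincRNA genes, so the same count was made for summits within 100 bp of the gene's 5′ end. By that measure 29.7% of tRNA genes, 25.4% of snoRNA genes and 17.1% of snRNA genes had a summit, against 14.1% of ncRNA genes, 8.37% of protein-coding genes, 8.43% of miRNA genes and 4.73% of piRNA genes. For protein-coding genes, summit density was highest 200 bp upstream of the annotated 5′ end, outside this window. The snRNA interval, 11.5 to 24.5%, holds the ncRNA share and overlaps the snoRNA interval, 21.1 to 30.3%. Of all nuclear bases, 6.01% lay within 100 bp of a relaxed summit. Genes and peaks are not replicates, so these intervals cover counting error only.

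**Figure D1:**
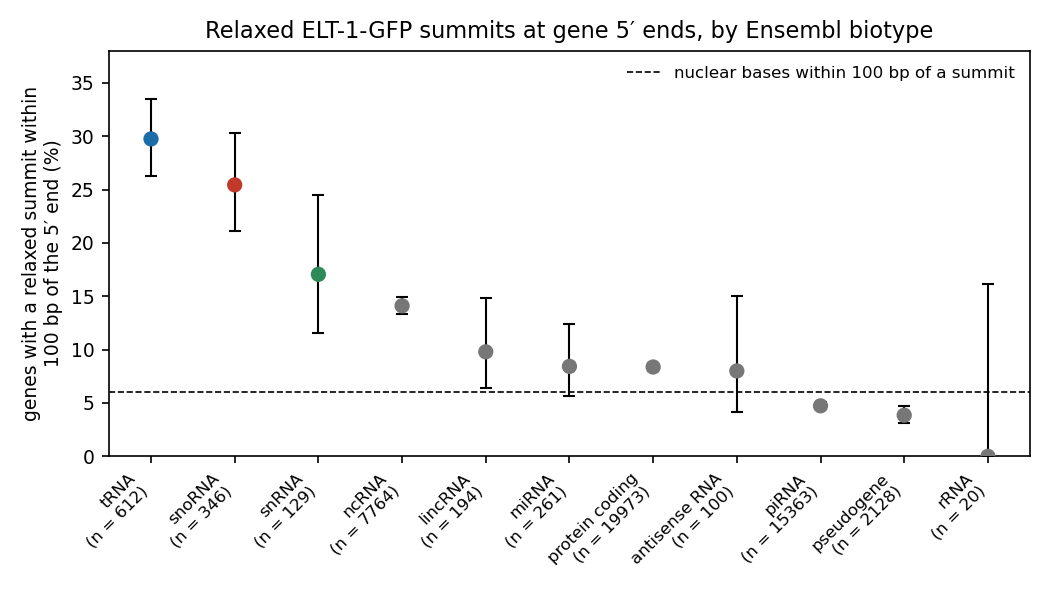
Share of genes with a relaxed pooled summit within 100 bp of the 5′ end (y axis, %), by Ensembl biotype (x axis, n genes), with 95% Wilson intervals. The shares for tRNA (29.7%) and snoRNA (25.4%) genes lie above the upper limit of every other biotype shown, the highest of which is 24.5% for snRNA. The snoRNA interval (21.1 to 30.3%) overlaps the snRNA interval (11.5 to 24.5%).

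tRNA pseudogenes, copies that are not annotated as working genes, did not show the share of tRNA genes. RefSeq annotates 209 tRNA pseudogenes on the nuclear chromosomes, with a median length of 73 bp, and none overlapped an Ensembl tRNA gene. A relaxed summit lay in or within 100 bp of 14 of them (6.70%, 4.03 to 10.9%), against the 35.3% of tRNA genes. Their sequences held the strict B box core, which reads GGTTCGA, then any 2 bases, then CC, on either strand, about as often as those of tRNA genes, in 394 of 612 tRNA genes (64.4%) and 135 of 209 pseudogenes (64.6%). Among tRNA genes, 142 of 216 with a peak held the strict core (65.7%), and 252 of 396 without one (63.6%). Of all 1760 matches to the strict core on the nuclear chromosomes, 398 had their centre in a tRNA gene, and 112 of those had a summit within 100 bp (28.1%). Of the 151 in tRNA pseudogenes 7 did (4.64%), and of the 1203 elsewhere 59 did (4.90%). Of the other 8, which lay within 100 bp of a snoRNA or snRNA gene, 6 did (interval 40.9 to 92.9%). Whether reads that match several places were kept is not stated in the sources used here. A lack of peaks at pseudogenes therefore cannot be told apart from a lack of reads.

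Summits gathered close to the small RNA genes. In bins of 100 bp along the gene's strand, summit density was highest in the bin centred on the 5′ end for tRNA genes, at 1.96 summits per kb and gene, and for snoRNA genes, at 1.5. For snRNA genes it was 0.85 there and 1.01 in the next bin downstream, and for protein-coding genes 0.41 at the 5′ end and at most 0.60, in the bin 200 bp upstream. At tRNA genes, 89 summits lay inside the gene, 76 upstream and 56 downstream. At snoRNA genes, 60 of 105 summits lay upstream (57.1%, 47.6 to 66.2%), 29 inside and 16 downstream, with a median of 43.5 bp upstream of the 5′ end for the upstream ones. At snRNA genes, 9 lay upstream, 13 inside and 13 downstream.

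**Figure D2:**
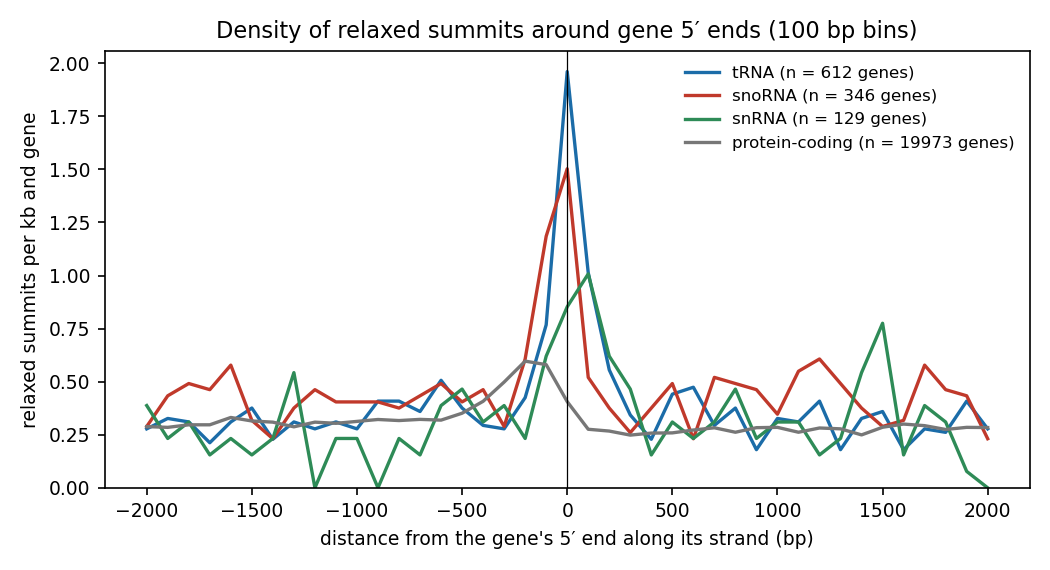
Density of relaxed pooled summits (y axis, summits per kb and gene) by distance from the gene's 5′ end along its strand (x axis, bp, 100 bp bins). The tRNA and snoRNA lines rise to 1.96 and 1.5 at the 5′ end, against 0.41 for protein-coding genes.

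The members stood high in the pooled list. Signal here is the peak's own value from the authors' peak caller, comparable only within a list, and rank 1 is the highest signal. Median signal was 12.5 in the members (95% interval of the median 11.7 to 13.9, range 4.92 to 64.2), against 7.86 in the other nuclear peaks. Median rank was 5931 in the members and 15111.5 in the others. Of the members, 122 of 361 were in the top 10% of the list (33.8%, 29.1 to 38.8%), against 9.63% of the others. By class this was 47 of 105 snoRNA members (44.8%), 68 of 221 tRNA members (30.8%) and 7 of 35 snRNA members. The best rank of a member was 233.

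**Figure D3:**
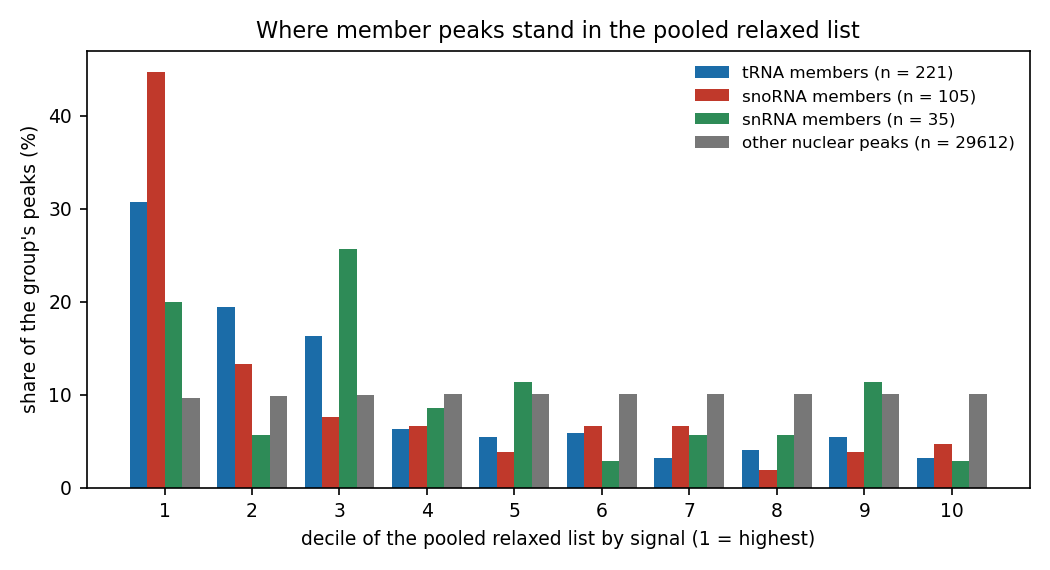
Share of each group's peaks (y axis, %) by decile of the pooled relaxed list (x axis, 1 = highest signal), for tRNA, snoRNA and snRNA members and the other nuclear peaks. The first decile holds 44.8% of snoRNA and 30.8% of tRNA members, against 9.63% of the other peaks.

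The 6 members with the highest signal were at snoRNA genes, none of which had an identical copy, as was so of all 346 snoRNA genes. T03F7.8, in an intron of cutl-18 on the opposite strand, had the highest signal, 64.2 in the pooled list, with 51.0 in replicate 1 and 21.7 in replicate 2. C51F7.4, whose peak is also near the snoRNA gene C51F7.3, both in an intron of frm-7, had 62.9 in the pooled list, with 33.2 in replicate 1 and 27.4 in replicate 2. Outside host genes, W03C9.9 had 55.1, with 40.3 in replicate 1 and 16.0 in replicate 2. T02E1.9 had 51.2, T10B9.11 had 50.7 and T27A3.9 had 46.6. The next snoRNA members, Y71F9AM.7 with 38.4 and T06C12.16 with 37.9, stood below several tRNA and snRNA members. Each of these 8 had a peak in both replicates, between rank 160 and rank 1760 in replicate 1. The best replicate ranks belonged to C04A2.16, in an intron of egl-27, with rank 85 in replicate 1 (signal 66.0) and rank 98 in replicate 2 (signal 36.5). Its own pooled peak had a signal of 23.0 at rank 1928 and overlapped a separate IDR peak, so the replicate values cannot be told apart from those of that neighbour.

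Among tRNA members, the gene with the highest signal was sup-5, a tryptophan tRNA gene in an intron of fli-1 in which amber suppressor mutations are known. Its peak had a signal of 44.7 in the pooled list at rank 539, with 29.3 in replicate 1 and 17.1 in replicate 2. sup-5 is 1 of 10 identical tryptophan tRNA genes, of which 5 had a peak. The others were rtw-6 with a pooled signal of 19.7, sup-7 with 11.2, sup-24 with 10.05 and sup-28 with 7.59, so identical genes ranged from 7.59 to 44.7. After sup-5 came the alanine gene T07H6.t2 with 38.8, the isoleucine gene T09B4.t1 with 38.7, the arginine gene F29C4.t1 with 36.3 and the leucine gene C04A11.t1 with 35.9. The tyrosine gene R11.t1 had 35.4, the glutamate gene C28G1.t1 34.8 and the leucine gene C04A2.t1 34.5. The replicates were uneven at several of these. T07H6.t2 had 27.2 in replicate 1 (rank 660) and 6.16 in replicate 2 (rank 4612), while F29C4.t1 had 17.2 in replicate 1 (rank 1626) and 21.8 in replicate 2 (rank 299).

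Every amino acid class had at least 1 gene with a peak (the 5 tRNA genes with no product named had none), and no class had a peak at every gene except selenocysteine, whose single gene K11H12.t1 had a signal of 11.7. The share was 8 of 14 genes for phenylalanine (57.1%, 32.6 to 78.6%), 20 of 39 for leucine (51.3%, 36.2 to 66.1%) and 3 of 20 for histidine (15.0%, 5.24 to 36.0%). These intervals overlap between phenylalanine and histidine only from 32.6 to 36.0%. Members overlapping the thresholded list were 4 each at isoleucine and tyrosine genes, 3 each at arginine and leucine genes and 2 at alanine genes. Genes with an identical copy elsewhere had a peak in 180 of 469 cases (38.4%, 34.1 to 42.9%), and those with none in 36 of 143 (25.2%, 18.8 to 32.9%). The sources used here do not state whether reads that match several copies were kept. Within a family of identical genes the copies differed. Of the 24 identical proline genes, 9 had a peak, with signals from 5.92 at Y7A5A.t2 to 32.0 at F46G11.t1, 29 identical glycine genes had 12, and 11 identical histidine genes had 1, Y7A9D.t1, at 22.7. The X chromosome holds 276 of the 612 tRNA genes, and 93 of them had a peak (33.7%, 28.4 to 39.5%). The other chromosomes ranged from 24 of 78 on V (30.8%) to 28 of 66 on I (42.4%, 31.2 to 54.4%).

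Among the snRNA genes, both classes of spliced leader genes were counted. The SL2 class, which is spliced onto the downstream genes of operons, had a peak at 9 of 18 sls-2 genes. sls-2.4 had a pooled signal of 45.5, with 29.3 in replicate 1 and 13.6 in replicate 2, and sls-2.1 had 42.8, with 38.95 in replicate 1 and 10.01 in replicate 2. The peak near sls-2.9, 99 bp upstream of it, had 27.4 at rank 1452 but lies closer, at 33 bp, to the lysine tRNA gene M01E5.t1, and is counted with the tRNA members. The other 6 were sls-2.2 with 17.5, sls-2.8 with 11.7, sls-2.15 with 10.1, sls-2.7 with 7.01, sls-2.14 with 5.88 and sls-2.11 with 5.56. sls-2.11 had no peak in either replicate. No peak was listed at the 12 sls-1 genes of the SL1 class. Its genes lie with the 5S ribosomal RNA genes, rrn-4, in a tandem array on chromosome V (17115903 to 17132107), where the pooled list and replicate 1 held 0 summits and replicate 2 held 1. The 16 rrn-4 genes had no pooled peak either, among them rrn-4.15 and rrn-4.16, which lie outside the array. Most of its sls-1 genes are identical copies of each other, and whether reads that match several copies were kept is not stated, so an absence of peaks there cannot be told apart from an absence of reads. Beyond the spliced leaders, C52E4.8 had 34.4, F54D8.7 had 31.9, W05B2.8 had 28.6, F38E11.10 had 24.3 and sup-6, which Ensembl lists as snRNA, had 18.8. The annotation used does not give the U class of the other snRNA genes. None of the 10 smy genes listed as snRNA had a peak, and of the 2 listed as snoRNA, smy-2 had one, at 19.2. Genes for other RNAs of polymerase III, which Ensembl lists as ncRNA and which are outside the set, were looked up by name. The RNase P RNA gene rpr-1 had a peak of 31.4 at rank 1116, with 13.5 in replicate 1 and 15.4 in replicate 2. The RNase MRP RNA gene mrpr-1 had 28.0 at rank 1385, with 21.8 in replicate 1 and 3.57 in replicate 2. Both overlapped an IDR peak, and the Y RNA gene yrn-1 had no peak.

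Support in the replicates was more common in the members than in the other peaks. A peak of both replicates overlapped 216 of 361 members (59.8%, 54.7 to 64.8%), against 30.1% of the other nuclear peaks. Replicate 1 supported 83.4% of members and 66.8% of the others, and replicate 2 supported 71.5% of members and 48.8% of the others. With the stricter demand of summits within 100 bp in both replicates, 133 members remained (36.8%, 32.0 to 41.9%), against 15.7% of the others. The pooled list was made from both replicates, so this support is not independent of the pooled signal. The ranks agreed loosely. Across the 216 members with a peak in both, Spearman's rho between the replicates' signals was 0.27, with 0.41 in 67 snoRNA members, 0.32 in 17 snRNA members and 0.17 in 132 tRNA members, against 0.44 in 8920 other peaks, as a description over peaks of the same 2 libraries. Taken from each replicate alone, 333 of the small RNA genes had a summit in replicate 1 and 266 in replicate 2, and 152 had one in both, which is 45.6% of the genes of replicate 1 and 57.1% of those of replicate 2.

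**Figure D4:**
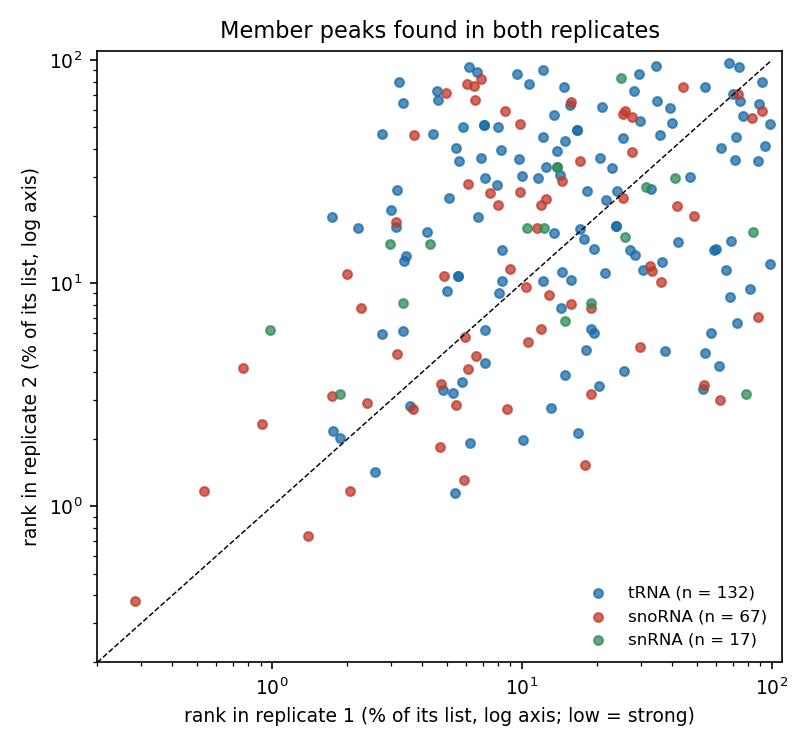
Rank of the overlapping peak in replicate 1 (x axis) and replicate 2 (y axis), each as % of that replicate's list on a log axis, for the 216 members with a peak in both. The points scatter widely about the dashed line of equal rank, with C04A2.16 lowest on both axes at 0.28% and 0.38%.

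The irreproducible discovery rate (IDR) list of the authors held 1400 peaks, and these were exactly the 1400 pooled peaks with the highest signal, so overlap with it restates the rank. Of the members, 50 overlapped an IDR peak (13.9%, 10.7 to 17.8%), against 5.26% of the other nuclear peaks. They were 22 of 105 snoRNA members (21.0%), 7 of 35 snRNA members and 21 of 221 tRNA members (9.50%). Of the 50, 45 were themselves IDR peaks, and the rest share part of their interval with a stronger neighbour.

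The GATA motif was less frequent at these summits than at the other peaks. WGATAR on either strand within 100 bp of the summit was found in 113 of 361 members (31.3%, 26.7 to 36.3%), against 40.5% of the other nuclear peaks. It was in 33.9% of tRNA members, 29.5% of snoRNA members and 7 of 35 snRNA members. Among peaks overlapping an IDR peak the gap was wider, with 13 of 50 members (26.0%) against 1001 of 1557 others (64.3%). The form AGATAA was in 5 of these 50 members and in 38.3% of the others. The members' windows were richer in G and C, with a median of 44.8% against 36.3% in the others, and WGATAR is poor in these bases. In windows with 40% GC or more, a limit set after the data were seen, WGATAR was in 79 of 276 members (28.6%, 23.6 to 34.2%) and in 35.3% of the others. In windows under 40% GC it was in 34 of 85 members (interval 30.2 to 50.6%) and in 42.8% of the others, and in 4 of 5 members overlapping an IDR peak against 72.0% of the others, so the members' intervals there (37.6 to 96.4% for the 5) hold the shares of the others. In the range of 40% or more it was in 9 of 45 members overlapping an IDR peak (interval 10.9 to 33.8%), against 57.7% of the 836 others. The strongest member with WGATAR among those printed above is T10B9.11, with the letters TGATAG, and F17C11.24 held 4 matches at a signal of 28.9.

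Letters of the internal polymerase III promoter were found at many summits, also at snoRNA genes. The loose B box core GTTCNANNC, on either strand within 100 bp of the summit, was in 24 of 105 snoRNA members (22.9%) and in 2 of 35 snRNA members (5.71%), against 6.34% of the other nuclear peaks. Among peaks overlapping an IDR peak it was in 11 of 22 snoRNA members (interval 30.7 to 69.3%), against 5.91% of 1557 others. This loose form was chosen after windows of strong snoRNA members were seen. Its share in them is therefore partly set by that choice, which the interval does not cover. In tRNA members the loose core was in 166 of 221 windows (75.1%), which follows from their place at tRNA genes. The strict core was in 5 of 105 snoRNA windows (4.76%), against 0.21% of the other nuclear peaks. By the rule of the set, those others leave out every peak at a tRNA gene, which lowers their share of both cores. Over all nuclear peaks, members included, the strict core was in 0.57% and the loose core in 6.91%. The strict core was within 100 bp of 10 of the 346 snoRNA genes, of which 6 had a member peak. Of these 6, C51F7.4, C51F7.3, W03C9.9, T27A3.9 and Y43F8C.22 overlapped an IDR peak, and Y39G10AR.24 had a signal of 21.8. C51F7.4 and C51F7.3 share the same peak, which is counted for both genes. No strict core lay within 100 bp of a snRNA gene. ATGTCT was in 5 of 35 snRNA members (14.3%, 6.26 to 29.4%), against 9.10% of the other nuclear peaks. By place, it was in 4 of the 9 with a summit upstream of the gene (18.9 to 73.3%), 1 of 13 inside and 0 of 13 downstream. ATGTCT was chosen after the printed windows were seen. Of these, F54D8.7 and W05B2.8 are among the 4 upstream and sls-2.1 is the 1 inside. The split by place is therefore not independent of that choice. GAGAGA, on either strand, was in 11 of 21 tRNA members overlapping an IDR peak (52.4%, 32.4 to 71.7%), in 3 of 22 such snoRNA members and in 33.7% of the others. CGTCTC was in 9 of the 50 members overlapping an IDR peak and in 18.2% of the others.

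**Figure D5:**
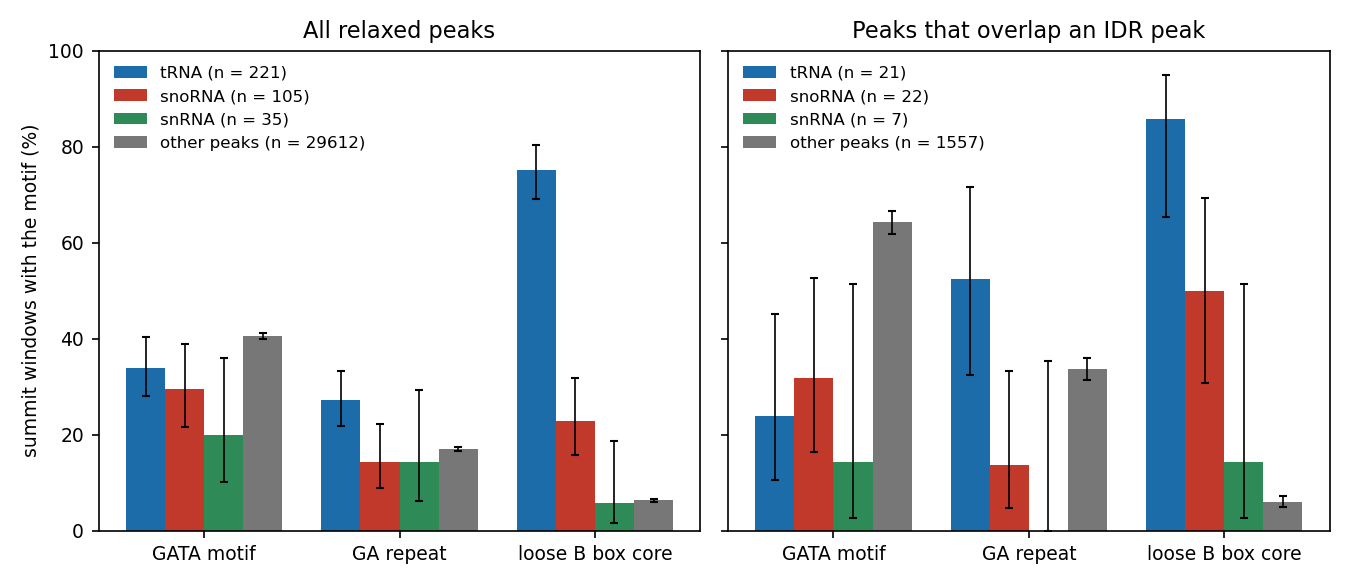
Share of summit windows, 100 bp to each side (y axis, %) that hold WGATAR (GATA motif), GAGAGA (GA repeat) or GTTCNANNC (loose B box core) on either strand, for all relaxed peaks (left) and those overlapping an IDR peak (right), with 95% Wilson intervals. On the right, WGATAR is in 23.8% of tRNA and 31.8% of snoRNA members against 64.3% of other peaks, and the loose core in 11 of 22 snoRNA members against 5.91%. The loose core was chosen after windows of strong snoRNA members were seen.

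The neighbourhood of protein-coding genes did not set the members apart by its frequency. A summit lay within 1000 bp of an annotated protein-coding 5′ end in 156 of 361 members (43.2%, 38.2 to 48.4%), against 45.7% of the other nuclear peaks. Those near such an end overlapped an IDR peak in 19.2% of cases and those farther away in 9.76%, against 5.75% and 4.85% of the others. A summit lay in a protein-coding exon in 32 of 361 members (8.86%) and in 28.6% of the others, a difference that the choice of summits at small RNA genes largely sets. The small RNA gene lay in a protein-coding host gene for 188 members (52.1%, 46.9 to 57.2%), and on the host's strand for 124 (34.3%). Of all 1087 small RNA genes, 52.3% lay in a host. A host made little difference for tRNA genes, with a peak at 107 of 290 in a host (36.9%) and 109 of 322 outside (33.9%). For snoRNA genes it was 57 of 216 in a host (26.4%, 21.0 to 32.6%) and 46 of 130 outside (35.4%, 27.7 to 43.9%). Among snRNA genes, 22 of 62 within 1000 bp of a protein-coding 5′ end had a peak (35.5%, 24.7 to 47.9%), and 11 of 67 farther away (16.4%, 9.42 to 27.1%).

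The limit of 100 bp was not a break in signal. The 41 members with a summit 81 to 100 bp from the gene had a median signal of 10.8, and the 26 peaks with a summit more than 100 and up to 120 bp away, which are not members, had 8.83. The highest signal was 36.3 in those just inside, at F09G2.14, and 47.9 in those just outside.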

How the data were processed

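ELT-1-GFP binding was measured by ChIP-seq in 2 biological replicates of 1 group, numbered as in the labels. Per the deposited file listings, the authors called relaxed peaks on each replicate and on the pool against a shared control. The relaxed ce11 lists held 30000 (replicate 1), 26001 (replicate 2) and 30000 (pool) peaks. The signal used is the deposited value of column 7 of each list, with no stated scale between lists. Aligner, caller, versions, filters on reads that match several places and IDR threshold are not stated in the sources used here. Read depth was unknown, so intervals cover counting error only.

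Summits were set against Ensembl release 115 genes and the WBcel235 sequence of RefSeq (1-based coordinates). Gene symbols, tRNA products and tRNA pseudogenes came from RefSeq on the same assembly, and all 1087 small RNA genes matched. A peak near several genes went to the nearest. Replicate values are those of the overlapping replicate peak with the nearest summit. Overlap means 1 bp or more. Shares carry 95% Wilson intervals, medians an order-statistic interval, and no p-value was computed, since there was 1 group and peaks are not replicates. Motifs were searched on both strands within 100 bp of the summit. The search for genes near a summit, the WGATAR search and the Wilson intervals were tested on planted or simulated cases, and the other steps were not. Tools were pandas 2.3.3, numpy 2.4.6 and SciPy 1.17.1, with figures in matplotlib 3.10.9.

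Named genes were the 8 member peaks of highest signal in each biotype, the 30 highest members overlapping an IDR peak, every spliced leader gene with a member, and the 3 best ranks in each replicate. A few others, named as family members or for a motif, were chosen after their values were seen. The members and gene lists were chosen with earlier results of these data known. Alternatives covered the distance to the gene, overlap rules, motif windows and forms, distance from protein-coding 5′ ends, host strand and each replicate alone. GC content was added after the data were seen.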

Additional observations from a re-analysis of the deposited data

How the results depend on the processing

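No paired analysis was possible because the series held 1 group. With the summit required inside the gene, 131 peaks qualified in place of 361, at 89 tRNA, 29 snoRNA and 14 snRNA genes. Within 250 bp the median signal was 11.7 and the median rank 6825. From each replicate's list alone, the number of peaks was 265 to 335, with 164 to 203 tRNA genes, 76 to 105 snoRNA genes and 25 to 26 snRNA genes, and the median rank was 18.1 to 23.6% of the list, against 19.8% in the pool. IDR overlap was 9.76% in members over 1000 bp from protein-coding 5′ ends. Support in both replicates was 36.8% with summits within 100 bp. WGATAR was in 17.5% of members within 50 bp and in 55.1% within 200 bp (24.2% and 62.6% of the other peaks), AGATAA in 11.1% (15.9%) and HGATAR, where H is A, C or T, in 39.6% (48.7%), so each stayed lower in the members. On the host's strand, 34.3% of members had a host gene. A wider or narrower window changes these shares by its construction. Reciprocal overlap of 50% with an IDR peak gave 12.5%. Read depth was unknown, and 2 replicates of 1 strain with no untagged control analysed here limit every count.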
